A study of Mus musculus with 15 samples.

Results

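The 10 genes described here are mouse targets and partners of the glucocorticoid receptor, together with both expressed metallothioneins: Nr3c1, Fkbp5, Tsc22d3, Errfi1, Klf9, Zbtb16, Sgk1, Ddit4, Mt1 and Mt2. They were chosen by name, with earlier results of these data in view, so their shares stand beside those of all genes as descriptions. They are 10 of the 53546 gene symbols counted, and all 10 were among the 14683 genes with enough counts to be tested. Levels came from 15 bulk RNA-seq libraries of dural macrophages, the resident phagocytes of the outer membrane around the brain, sorted as CD206-positive cells. All mice were untreated C57BL/6J animals of the genotype Cx3cr1GFP/wt, in which GFP replaces 1 copy of the chemokine receptor gene Cx3cr1, so that no library came from mice with both copies intact. Each of 5 ages had 3 libraries: the embryonic age E14.5, then P3, P10 and P21 in the 3 weeks after birth, and P56 in young adults (P, postnatal day). The labels put the P56 libraries in sequencing Project_S276 and the other 12 in Project_S232, so age and project cannot be told apart at P56. The labels do not say which mouse each library came from or whether mice were pooled, so p-values measure the spread between these libraries. No hormone or metal level is among the data used here.

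Glucocorticoids, chiefly corticosterone in mice, enter cells and bind the glucocorticoid receptor, which is held ready in the cytoplasm by heat shock chaperones. The bound receptor moves to the nucleus, where it binds palindromic DNA sites and raises genes that restrain inflammation and adjust metabolism, in macrophages as in most cell types. Metallothioneins are small cysteine-rich proteins that bind zinc and copper. Their genes are switched on by zinc through the factor MTF1, which binds short metal response elements, and also by glucocorticoids.

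Libraries held 17550170 to 30614583 counts, and levels below are CPM, counts per 1000000 counts of the tested genes, scaled by TMM, a factor that corrects for differences in library composition. Mrc1, which encodes CD206, had 1640 to 4006 CPM over the 15 libraries, and the macrophage receptor gene Csf1r had 3198 to 8689 CPM. P21 replicate 2 stood apart on a principal component analysis. E14.5 replicates 1 and 2 held 1648 and 1359 counts of Xist, expressed in female cells, and 27 and 89 counts of Y-linked genes, against 2733 to 5562 Y-linked counts in each of the other 13 libraries. Results that use E14.5 were therefore repeated without both, which leaves 1 E14.5 library that is assumed to vary like the libraries of the other ages. In bulk libraries, fewer cells of a type and less RNA per cell cannot be told apart.

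**Figure D1:**
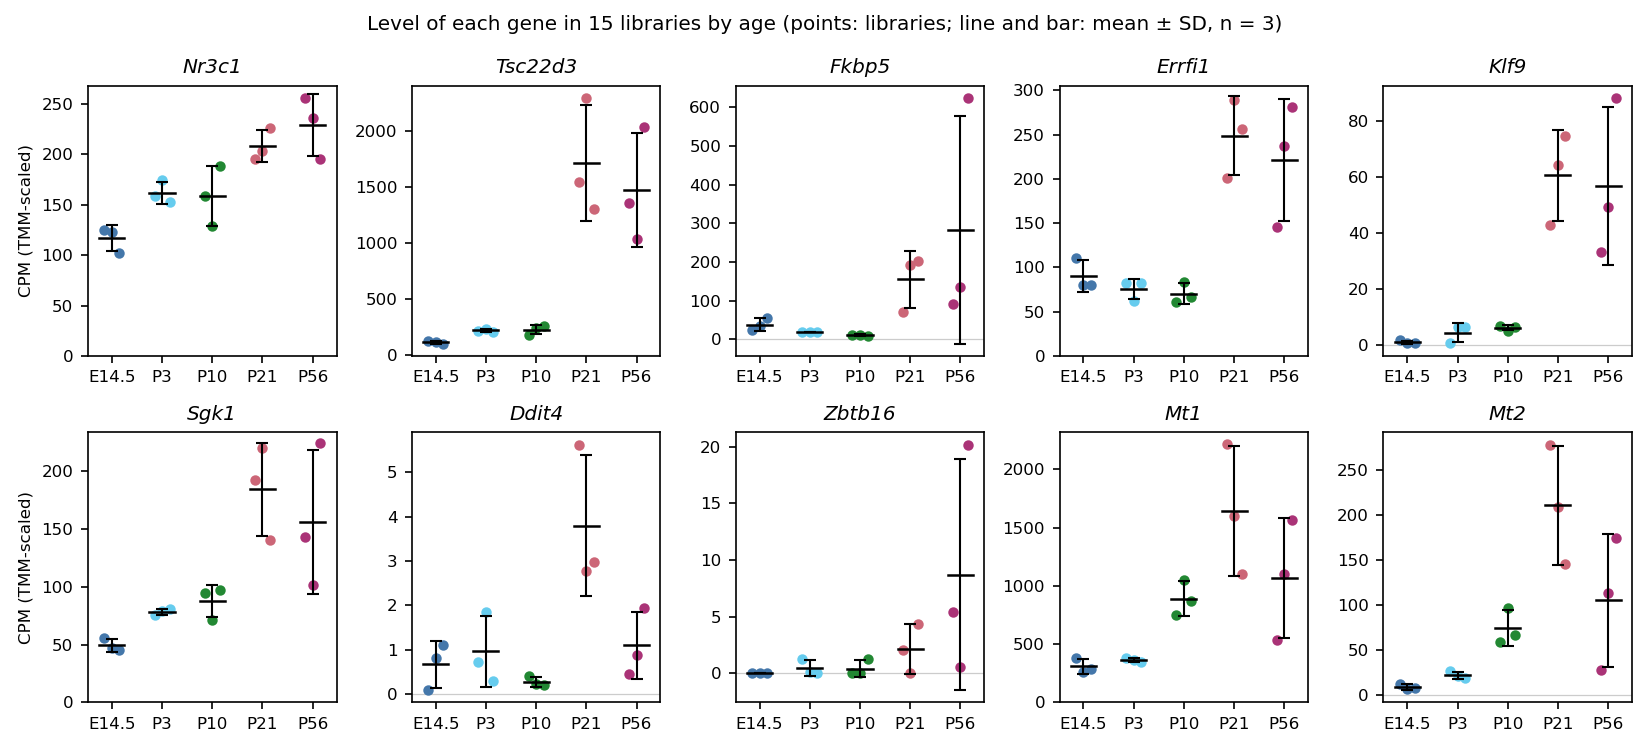
Level of each of the 10 genes in CPM (vertical axis, a separate linear scale per gene) at each age (horizontal axis). Points are libraries, and lines with bars are the mean ± SD over 3 libraries; Tsc22d3, Errfi1, Klf9 and Mt2 stand higher in every P21 library than in any P10 library.

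Among neighbouring ages, edgeR called changes in the 10 genes only between P10 and P21. Not all had their largest log2 change there: Mt1 (1.29) and Mt2 (1.77) had it at P10 against P3. Nr3c1 (0.47) had it at P3 against E14.5, as did Zbtb16, whose E14.5 libraries were all at 0. With edgeR's quasi-likelihood test and Benjamini-Hochberg adjustment over all tested genes, called at an adjusted p under 0.05, 4 of the 10 genes rose at P21 against P10 (Tsc22d3, Fkbp5, Errfi1 and Klf9), and none fell. Over all tested genes, 0.96% were called higher and 0.184% lower in this comparison. In 9 of the 10 genes every P21 library exceeded every P10 library, which held for 8.8% of all genes; Zbtb16 was the exception. The median log2 change was 2.08 for the 10 genes and -0.012 for all genes. DESeq2 called 7 of the 10 higher (3.68% of all genes). Ranked by p-value among 14683 genes, Tsc22d3 was number 2 and Errfi1 number 15.

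Nr3c1 encodes the glucocorticoid receptor itself. Its libraries had 125, 123 and 102 CPM at E14.5, 159, 174 and 153 at P3, 158, 129 and 189 at P10, 195, 203 and 226 at P21, and 256, 236 and 196 at P56. Within an age its SD was 6.88% (P3) to 18.9% (P10) of the mean. The receptor transcript was thus present in every library and lowest at E14.5. It averaged 208 ± 16.1 CPM at P21 and 117 ± 12.9 CPM at E14.5 (SD, n = 3 each), a log2 change of 0.84 ± 0.16 (SE; edgeR adjusted p = 0.00264). No single step passed in edgeR. The log2 change was 0.47 ± 0.15 for P3 against E14.5 (adjusted p = 0.163). For P21 against P10 it was 0.39 ± 0.15 (adjusted p = 0.261), and libraries did not overlap in either step.

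Fkbp5 encodes a co-chaperone that lowers the receptor's affinity for hormone and is itself induced by the receptor, which makes it a feedback brake. It had 71.4, 193 and 204 CPM at P21, against 12.8, 11.5 and 9.46 CPM at P10. All P21 libraries lay well above all P10 libraries, with P21 replicate 1 lower than the other two of its age. The rise was 13.8-fold (log2 change 3.79 ± 0.64, adjusted p = 0.0142). Before P21 the level ran the other way: 24.3, 35.1 and 56 CPM at E14.5, then 20.2, 18.8 and 19.9 CPM at P3, with no overlap between neighbouring ages down to P10. Neither of these lower steps passed (P3 against E14.5 -0.97, adjusted p = 0.546; P10 against P3 -0.80, adjusted p = 0.733). Fkbp5 also rose at P21 against E14.5 (log2 change 2.02 ± 0.59, adjusted p = 0.0399). Its call against P10 was lost without P10 replicate 1, 2 or 3 (adjusted p = 0.0850, 0.0764 and 0.0562), with no filter on low counts (0.05004) and with limma voom (0.0971). Its call against E14.5 was lost without any 1 of the E14.5 libraries, without P21 replicate 2 or 3 (adjusted p from 0.0569 to 0.155), with no filter (0.158), with limma voom (0.0686) and without E14.5 replicates 1 and 2 together (0.576).

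Tsc22d3 encodes GILZ, the glucocorticoid-induced leucine zipper, which binds NF-kappaB and AP-1 and mediates part of the anti-inflammatory action of the hormone. It had 1543, 2290.0 and 1306 CPM at P21, against 180.2, 240.4 and 258 CPM at P10. The lowest P21 library was several times the highest P10 library. The rise was 7.57-fold (log2 change 2.92 ± 0.26, adjusted p = 0.000149). Earlier it had 217, 235 and 209 CPM at P3, against 126, 113 and 102 CPM at E14.5, groups that do not overlap but did not pass (log2 change 0.96 ± 0.24, adjusted p = 0.0609). P10 and P3 overlapped (log2 change 0.040 ± 0.24, adjusted p = 0.987). Of its log2 change at P21 against E14.5 (3.92 ± 0.27, adjusted p = 3.96e-07), 74.5% fell in the step between P10 and P21.

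Errfi1 encodes MIG6, an inhibitor of the EGF receptor family. It had 201, 289 and 256 CPM at P21, against 60.6, 83.1 and 67.1 CPM at P10, with a wide gap between the ages. The rise was 3.54-fold (log2 change 1.82 ± 0.24, adjusted p = 0.00299). The earlier ages resembled P10, with means of 90.2 ± 17.7 CPM at E14.5 and 75.7 ± 11.4 CPM at P3. Errfi1 and Tsc22d3 kept their calls for P21 against P10 under each alternative fit tried and without each single library of the 2 ages.

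Klf9 encodes a Krüppel-like transcription factor that the receptor induces directly. It had 43.0, 64.3 and 74.8 CPM at P21, against 7.01, 5.21 and 6.51 CPM at P10. The log2 change was 3.28 ± 0.65 (adjusted p = 0.0309). At P3 it differed within the age: replicate 1 had 0.723 CPM, at the level of E14.5 (1.74, 0.733 and 0.835 CPM), while replicates 2 and 3 had 6.36 and 6.40 CPM, at the level of P10. Over the whole span it rose by 5.79 ± 0.74 (P21 against E14.5, adjusted p = 0.000143). The call against P10 was lost without P10 replicate 1, 2 or 3 (adjusted p = 0.131, 0.137 and 0.0891) and without P21 replicate 2 or 3 (0.0657 and 0.0539).

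Zbtb16 encodes PLZF, a zinc finger repressor that glucocorticoids induce strongly in several tissues. Here it was near the limit of detection, with raw counts of 0, 0 and 0 at E14.5, 42, 3 and 0 at P3, 0, 0 and 25 at P10, 42, 0 and 91 at P21, and 94, 11 and 363 at P56. Libraries of 1 age ranged between none and many counts, and P21 replicate 2 had none. With all E14.5 libraries at 0, the pooled P21 level was at least 46.8-fold higher than the E14.5 floor of 3 counts over the age, a limit that covers counting error only. Replicate 3 held most of these counts, and without it the bound was 22.2-fold. The difference did not pass (adjusted p = 0.106).

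**Figure D2:**
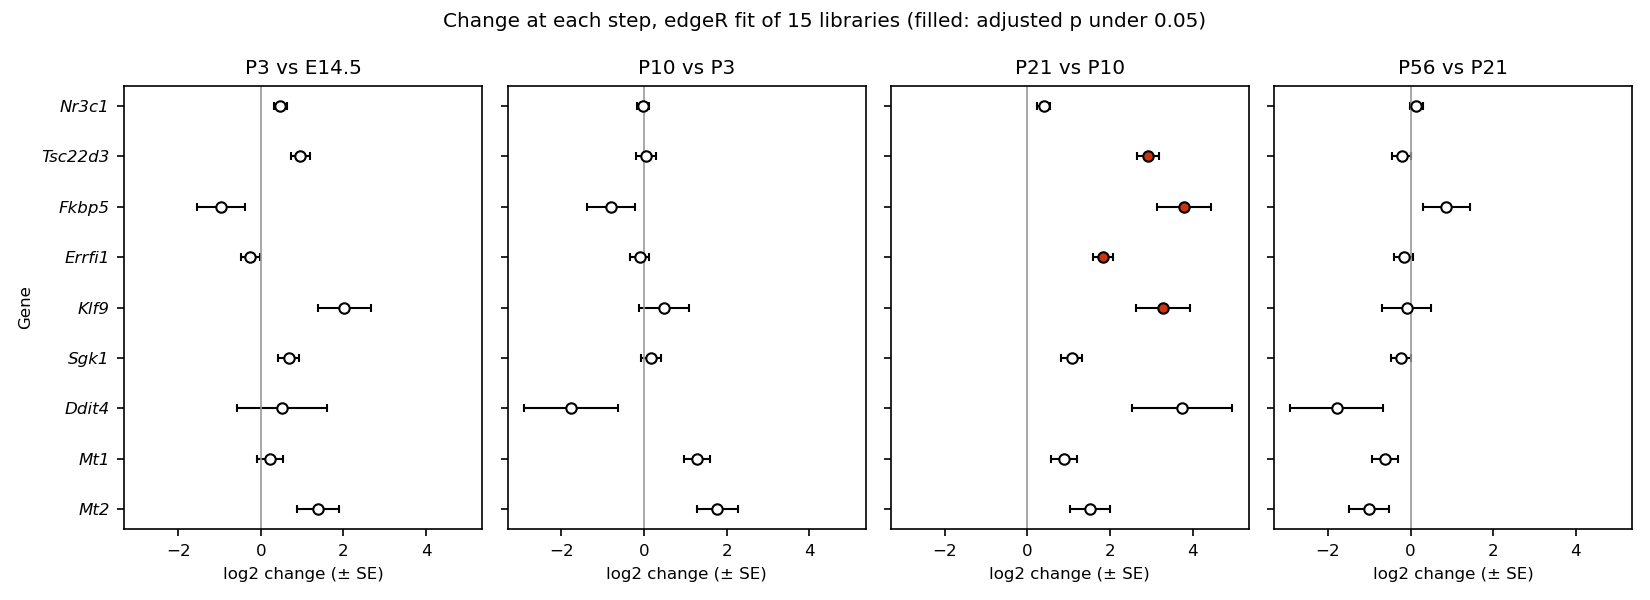
Log2 change ± SE (horizontal axis) of 9 genes at each step between neighbouring ages; Zbtb16 is left out because all E14.5 libraries were at 0. Filled points passed at an adjusted p under 0.05: Tsc22d3, Fkbp5, Errfi1 and Klf9 at P21 against P10, and no gene at the other steps.

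Sgk1 encodes a kinase of the AKT family that is induced by glucocorticoids and mineralocorticoids and acts on ion transport and FOXO factors. It had 192, 219.5 and 140.4 CPM at P21, against 94.4, 71.5 and 96.9 CPM at P10. These libraries did not overlap, but the test fell just short (log2 change 1.07 ± 0.25, adjusted p = 0.0563). It passed with DESeq2 (0.00235), limma voom (0.0406), no filter on low counts (0.00794) and a filter of 5 CPM in 3 libraries (0.0368), and without P21 replicate 3 (0.0411). Over the whole span it rose, with means of 184 ± 40.2 CPM at P21 and 49.2 ± 5.27 CPM at E14.5 (log2 change 1.90 ± 0.25, adjusted p = 0.000211).

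The window upstream of Sgk1 is shown because it holds the only full match to a palindromic receptor site in the windows searched. RefSeq promoter windows (GRCm38.p6, 250 bases before to 50 after an annotated start) were searched for 8 of the 10 genes, 16 windows in all. No window of Nr3c1 or Zbtb16 was among those searched, so nothing is said of theirs. The palindrome searched was AGAACA, any 3 bases, then TGTTCT, on both strands. It occurred in 1 of these 16 windows and in 3 of 32851 windows of all genes (0.00913%). Capitals mark it at 189 bases before 1 of the annotated Sgk1 starts, in chr10:21993640-21993889 on the plus strand, read 5′ to 3′ up to the last base before the start. Counts per gene do not show which Sgk1 start was used.
Sgk1: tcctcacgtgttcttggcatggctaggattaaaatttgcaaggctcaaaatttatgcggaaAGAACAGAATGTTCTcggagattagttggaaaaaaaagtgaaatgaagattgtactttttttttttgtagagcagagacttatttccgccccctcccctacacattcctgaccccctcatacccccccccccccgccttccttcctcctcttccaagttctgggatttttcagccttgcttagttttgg
The looser pattern GNACA, any 3 bases, then TGTNC lies within the palindrome and was also searched on both strands. It occurred in 2 of the 16 windows (Sgk1 and Mt1) and in 0.475% of all windows. No match in a window says only that these letters are not there.

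Ddit4 encodes REDD1, an inhibitor of mTORC1 that is induced by glucocorticoids, hypoxia and DNA damage. It had raw counts of 115, 53 and 62 at P21, against 13, 5 and 4 at P10. In CPM these are 5.62, 2.76 and 2.99 at P21, against 0.399, 0.224 and 0.204 at P10. Every P21 library was higher, yet at so few counts the log2 change of 3.75 had an SE of 1.22 and did not pass (adjusted p = 0.175; called by DESeq2).

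Mt1 encodes metallothionein 1, and it was the most abundant of the 10 transcripts per length. It had 2219, 1603 and 1104 CPM at P21, 749.8, 1049 and 867 CPM at P10, 383, 367 and 343 CPM at P3 and 383, 264 and 287 CPM at E14.5. The libraries of P3 and E14.5 overlapped, those of P10 lay above those of P3, and those of P21 lay above those of P10, by little at their nearest. Mt1 rose at P21 against E14.5 (5.28-fold, log2 change 2.40 ± 0.33, adjusted p = 0.000280). The single steps did not pass: 1.29 ± 0.32 for P10 against P3 (adjusted p = 0.131) and 0.89 ± 0.32 for P21 against P10 (adjusted p = 0.215).

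Mt2 encodes the second metallothionein of the cluster. It had 278, 209 and 145 CPM at P21, 58.6, 96.3 and 66.6 CPM at P10, 26.2, 20.4 and 18.2 CPM at P3 and 11.9, 5.94 and 7.03 CPM at E14.5. Each of these ages lay wholly above the one before it. The rise at P21 against E14.5 was 25.4-fold (log2 change 4.67 ± 0.56, adjusted p = 9.22e-05), while no single step passed: P3 against E14.5 gave 1.38 ± 0.50 (adjusted p = 0.223), P10 against P3 1.77 ± 0.50 (0.200) and P21 against P10 1.51 ± 0.49 (0.175). Of the whole log2 change, 32.4% fell between P10 and P21 for Mt2 and 36.9% for Mt1, in a step that did not pass for either gene.

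The metallothionein promoters are shown because both genes are known targets of MTF1 and of the receptor. The genes lie on the plus strand of chromosome 8, with annotated starts 6471 bases apart. Capitals mark matches to the metal response element core, TGCACNC or TGCGCNC on either strand, and in Mt1 also the match to the looser receptor pattern at 94 bases before the start. The windows are chr8:94178839-94179088 for Mt1 and chr8:94172368-94172617 for Mt2 (GRCm38.p6), each ending at the last base before the start.
Mt1: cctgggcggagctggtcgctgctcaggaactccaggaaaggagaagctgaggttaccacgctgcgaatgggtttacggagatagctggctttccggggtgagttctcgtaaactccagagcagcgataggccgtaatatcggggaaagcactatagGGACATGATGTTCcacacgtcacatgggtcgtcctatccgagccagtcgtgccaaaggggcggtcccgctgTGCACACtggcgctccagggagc
Mt2: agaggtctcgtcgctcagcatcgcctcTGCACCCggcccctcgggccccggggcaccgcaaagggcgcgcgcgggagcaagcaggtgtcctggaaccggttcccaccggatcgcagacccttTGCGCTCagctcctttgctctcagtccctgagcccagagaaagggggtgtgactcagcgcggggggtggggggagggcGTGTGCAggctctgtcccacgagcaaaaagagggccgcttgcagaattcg
With the 50 bases after the start included, Mt2 had 4 matches to the metal core and Mt1 had 3. Matches at positions 3 and 21 of Mt1 and 5 of Mt2 follow the annotated start and lie outside the printed bases. Counts per gene do not show which Mt1 or Mt2 start was used, so positions hold for the annotated starts only. At least 1 match occurred in 25.7% of all windows, at least 3 in 1.97% and at least 4 in 0.517%. Of the other genes with a searched window, Ddit4 and Sgk1 had 1 match each. A match is a description of the sequence, not a measured binding site.

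The 2 metallothioneins did not keep 1 proportion, a pattern chosen after the values were seen and given without a test. The ratio of Mt1 to Mt2 counts was 32.1, 44.4 and 40.8 at E14.5, 14.6, 18 and 18.8 at P3, 12.8, 10.9 and 13.0 at P10, 7.98, 7.67 and 7.61 at P21, and 19.7, 9.71 and 9.01 at P56. Ages up to P21 did not overlap, and the 3 P21 libraries gave nearly the same ratio although their Mt1 levels spanned 1104 to 2219 CPM. Transcripts of the pair share no identical run longer than 20 bases. The antisense gene Gm45774 overlaps 432 of the 588 exon bases of Mt2 (73.5%, GENCODE M21), and without a stated strand setting reads of the pair cannot be told apart. Reads in the overlap may have been split or dropped, so Mt2 counts, the ratio and the level of Mt2 per length are uncertain; Gm45774 was given 3.54% to 6.29% as many counts as Mt2, depending on age.

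**Figure D3:**
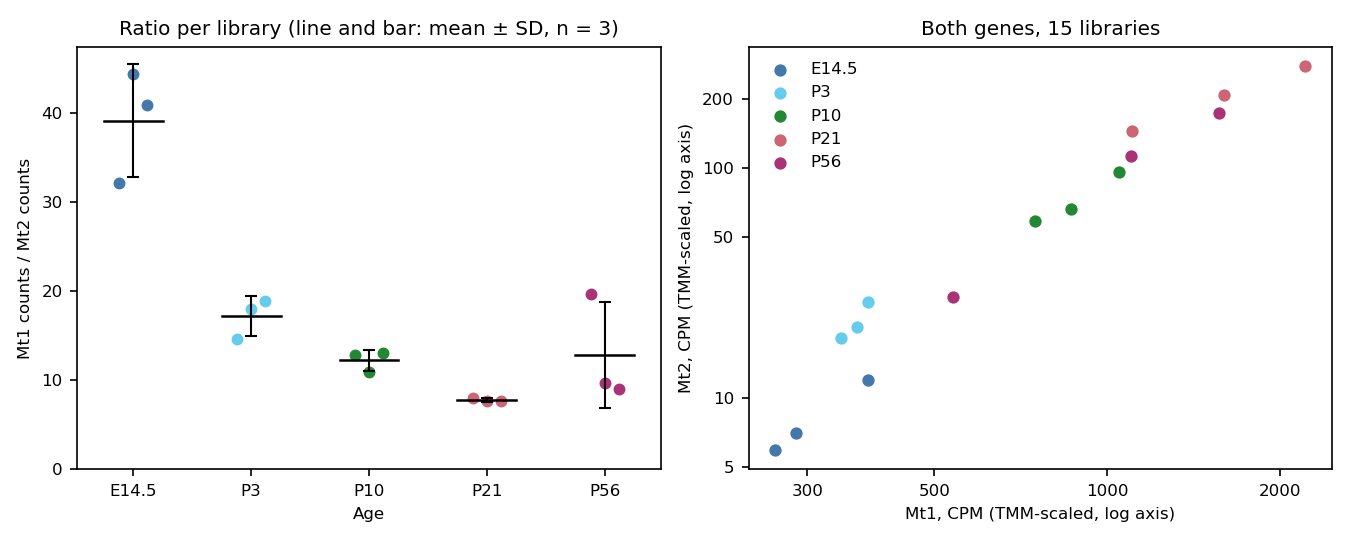
Left, ratio of Mt1 to Mt2 counts (vertical axis) at each age, with points for libraries and lines and bars for the mean ± SD over 3 libraries. Right, CPM of Mt2 against CPM of Mt1 in the 15 libraries on log axes; the ratio was 7.76 ± 0.200 at P21 and 39.1 ± 6.34 at E14.5.

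Over the whole span, 8 of the 10 genes rose at P21 against E14.5, where 7.81% of all genes were called higher. Ddit4 (adjusted p = 0.189) and Zbtb16 did not pass. In 9 of the 10 the P21 libraries lay wholly above the E14.5 libraries, which held for 16.1% of all genes. The median log2 change was 2.45, the same with Zbtb16 at its lower bound, against -0.0090 for all genes. With replicate 3 as the lone E14.5 library, 7 genes were called and Fkbp5 was not. Markers of other cells also differed in this comparison: 5 of 12 fibroblast markers were called higher, with sums of 1293 to 2044 CPM of the total count at P21, against 74.8 to 742 at E14.5. Of 9 erythroid markers, 4 were called lower, with sums of 4.50 to 12.5 at P21, against 137 to 341 at E14.5. Their part in these results was not tested. In an F-test of any difference among the 12 libraries of Project_S232, 8 of the 10 passed (12.3% of 14287 genes did), from Tsc22d3 (adjusted p = 5.49e-07) to Nr3c1 (0.0187), whose call was lost without E14.5 replicate 2 (0.0576) or 3 (0.0785).

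At P3 against E14.5, edgeR called 0 of the 10 genes (2.06% of all genes were called in either direction). At an unadjusted p under 0.05 there were 5 (Tsc22d3, Klf9, Sgk1, Nr3c1 and Mt2, all higher at P3; 8.11% of all genes), while limma voom called 0 and DESeq2 called 3 (4.72% of all genes higher). Libraries did not overlap for 4 genes higher at P3 (13.4% of all genes) and for Fkbp5, lower at P3 (13% of all genes). At P10 against P3, edgeR called 0 of the 10 (0.402% of all genes), with Mt1 and Mt2 higher at an unadjusted p under 0.05 (5.17% of all genes); limma voom called 0 and DESeq2 called both (1.31% of all genes higher). Only Mt1 and Mt2 were higher at P10 without overlap (9.8% of all genes) and only Fkbp5 lower (9.35%).

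At P56 against P21, edgeR called 0 of the 10 genes (0.272% of all genes), none reached an unadjusted p under 0.05 (11.7% of all genes did), and DESeq2 and limma voom called 0. These ages also differ in sequencing project. The libraries overlapped for every gene but Ddit4, which had 0.461, 0.878 and 1.94 CPM at P56, against 5.62, 2.76 and 2.99 CPM at P21 (log2 change -1.79 ± 1.12, adjusted p = 0.576; 6.22% of all genes were lower without overlap). Mt2 averaged 105 ± 73.7 CPM at P56 and 211 ± 66.4 CPM at P21 (log2 change -1.005 ± 0.49, adjusted p = 0.440), and Mt1 1070.0 ± 516 CPM at P56 and 1642 ± 558 CPM at P21 (log2 change -0.62 ± 0.32, adjusted p = 0.468). With SEs from 0.15 for Nr3c1 to 2.19 for Zbtb16, a missed threshold does not show that the ages were alike.

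The P56 libraries differed widely among themselves. Fkbp5 had 91.8, 137 and 624 CPM in P56 replicates 4, 5 and 6, and Mt2 had 27.4, 113 and 174 CPM. Replicate 6 was the highest of the 3 for every gene but Nr3c1, for which it was the lowest. Tsc22d3 had 1354, 1032 and 2030.5 CPM and Klf9 had 33.4, 49.3 and 88.1 CPM in the same order. Without replicate 6 the Fkbp5 difference from P21 turned negative (log2 change -0.44 against 0.87 with it). At P21 the genes did not share 1 order: replicate 1 was highest for Mt1, Mt2 and Ddit4 and lowest for Fkbp5, Errfi1, Klf9 and Nr3c1, whereas replicate 3 was highest for Fkbp5 and Klf9 and lowest for both metallothioneins.

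**Figure D4:**
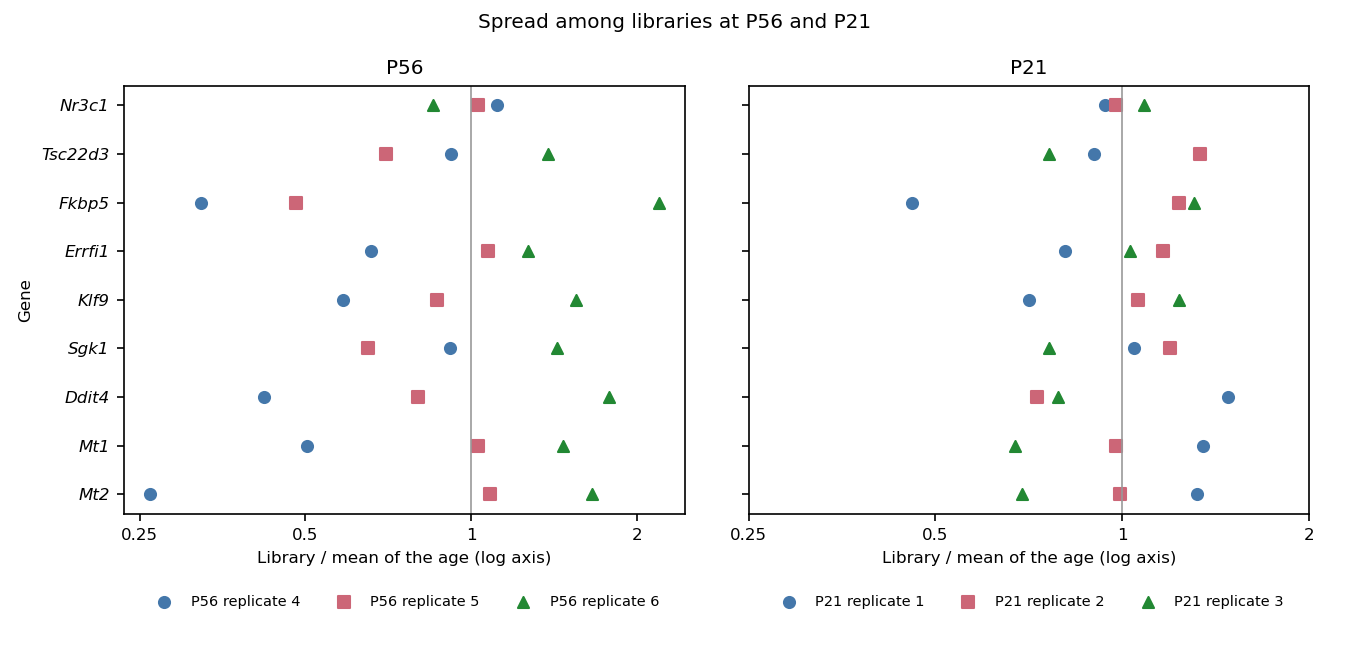
Level of each gene in a library divided by the mean of its age (horizontal axis, log scale), for the 3 libraries of P56 (left) and of P21 (right). At P56, replicate 6 lies right of the others for every gene shown but Nr3c1; at P21 the order of the libraries differs between the metallothioneins and Fkbp5.

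Levels of different genes can be compared only per length. Per kilobase of annotated exon (GENCODE M21), P21 libraries had 1318 ± 448 CPM of Mt1, 395 ± 118 of Tsc22d3, 358 ± 113 of Mt2, 69.4 ± 12.5 of Errfi1, 37.5 ± 8.20 of Sgk1, 27.1 ± 2.09 of Nr3c1, 16.5 ± 7.75 of Fkbp5 and 12.6 ± 3.37 of Klf9. Tsc22d3 and Mt2 were closer than their spread, as were Fkbp5 and Klf9, and Ddit4 (2.16) and Zbtb16 (0.406) came last. At E14.5 Mt1 (249.8 ± 50.7) again led, with Tsc22d3 (26.1 ± 2.80) and Errfi1 (25.2 ± 4.95) at the same level and Mt2 (14.1 ± 5.43) beside Nr3c1 (15.2 ± 1.68).

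Other genes of the pathway were set beside the shares over all genes. Among 19 tested genes that make, bind or fold around the receptor's hormone signal, edgeR called 0 in each of the 5 comparisons. Over all genes, edgeR called 0.96% higher and 0.184% lower at P21 against P10, and 7.81% and 4.37% at P21 against E14.5. In either direction edgeR called 2.06% at P3 against E14.5, 0.402% at P10 against P3 and 0.272% at P56 against P21. For P21 against P10, 1 of the 19 was higher and 0 lower at an unadjusted p under 0.05 (7.91% and 6.7% of all genes). DESeq2 and limma voom called 0 there, where DESeq2 called 3.68% of all genes higher. Counts of 0 or 1 among 19 genes at P21 against P10 are near these shares. For P21 against E14.5 the unadjusted count was 1 higher and 2 lower, DESeq2 called 1 higher and 2 lower, and limma voom 1 lower. Over all genes, DESeq2 called 1658 higher and 1124 lower in that comparison, and limma voom 1226 and 1143. At the other 3 steps DESeq2 and limma voom called 0. The unadjusted counts were 1 higher and 3 lower (P3 against E14.5), 0 (P10 against P3) and 0 higher and 1 lower (P56 against P21). Over all genes, 8.11% were higher at P3 against E14.5 and 5.17% at P10 against P3 at an unadjusted p under 0.05. At P56 against P21, 11.7% of all genes passed that threshold in either direction. For P21 against P10, 16 of the 19 had a positive log2 change, with a median of 0.14 (-0.012 for all genes). Fkbp4, the co-chaperone that favours receptor activity, went the other way. It had 169 ± 8.41 CPM at P21 and 195 ± 13.5 CPM at P10 (log2 change -0.20, adjusted p = 0.504). Hsd11b1, whose enzyme regenerates active hormone, had 0.877 ± 1.03 CPM at P21 and 0.288 ± 0.499 CPM at P10, and Nr3c2, the mineralocorticoid receptor gene, had 2.30 ± 1.68 CPM at P21 and 2.12 ± 1.51 CPM at P10.

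Of 29 further tested genes known to be induced by glucocorticoids, edgeR called 1 at P21 against P10, the phosphatase gene Dusp1 (log2 change 0.49 ± 0.10, adjusted p = 0.0309), and the median was 0.24. DESeq2 called 7 higher and 3 lower, and limma voom 3 higher and 1 lower. Over all genes, edgeR called 0.96% higher and DESeq2 3.68%. DESeq2 called 255 of 13412 genes lower, and limma voom called 206 of 14683 higher and 55 lower. At an unadjusted p under 0.05, 10 were higher and 5 lower, shares that over all genes were 7.91% and 6.7%. At P3 against E14.5, 5 of them rose and 1 fell in edgeR, where 1.67% of all genes rose and 0.388% fell. Those that rose were the hemoglobin scavenger receptor gene Cd163 (3.90), the thioredoxin inhibitor gene Txnip (1.04), the cell cycle inhibitor gene Cdkn1c (2.53), the cytokine gene Il10 (3.09) and the sulfotransferase gene Sult1a1 (2.60). Dusp1 was the one that fell (-0.74). Markers of other cells also differed at this step, and their part in these calls was not tested. At P21 against E14.5, 11 rose and 1 fell, with a median of 0.76, where 7.81% of all genes rose and 4.37% fell.

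Of 18 tested inflammatory genes that glucocorticoids are known to repress, edgeR called 1 higher and 0 lower at P21 against P10. DESeq2 called 3 and 2, and limma voom 3 and 1, with a median of 0.00085. Over all genes, edgeR called 0.96% higher and 0.184% lower, and DESeq2 called 3.68% higher. DESeq2 called 255 of 13412 genes lower, and limma voom called 206 of 14683 higher and 55 lower. The edgeR call was the cytokine gene Il1b (log2 change 1.32 ± 0.15, adjusted p = 0.000795). At P21 against E14.5, 6 rose and 2 fell, beside 7.81% and 4.37% of all genes. Among 23 tested genes of zinc and metal handling, edgeR called 0 at P21 against P10. There 1 was higher at an unadjusted p under 0.05 (7.91% of all genes), and DESeq2 and limma voom each called 1. Mtf1, the gene of the metal-sensing factor, had 12 ± 10.4 CPM at P21 and 25.1 ± 9.89 CPM at P10 (log2 change -1.07, adjusted p = 0.668). Slc30a1, a zinc exporter gene and MTF1 target, had 29.0 ± 4.34 CPM at P21 and 19.8 ± 8.35 CPM at P10 (log2 change 0.55, adjusted p = 0.455). Of 20 hypoxia and mTORC1 brake genes, the list nearest to Ddit4, Pfkfb3, a regulator of glycolysis, rose at P21 against P10 (log2 change 1.70 ± 0.33, adjusted p = 0.0308).

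Several other lists were examined for P21 against P10. Of 21 immediate early and heat shock genes, which also respond to tissue dissociation, edgeR called 6 higher (Btg2, Klf2, Klf4, Klf6, Hspa1a and Hspa1b, log2 changes of 0.84 to 3.33; 0.96% of all genes), DESeq2 11 and limma voom 3. The list summed to 22798 to 24530 CPM of the total count at P21, against 18400 to 22420 at P10. Markers of other cells were mostly lower or overlapped. Sums of 9 mast cell markers were 4.05 to 11.4 CPM of the total at P21, with 2 markers at 0, against 176 to 436 at P10. For them edgeR called 0, 4 were lower at an unadjusted p under 0.05, DESeq2 called 3 lower and limma voom 0. Over all genes, edgeR called 0.184% lower, and 6.7% were lower at an unadjusted p under 0.05. DESeq2 called 255 of 13412 genes lower, and limma voom 55 of 14683. Sums of 9 osteoclast markers were 245 to 340 at P21, against 996 to 2026 at P10, with 1 called lower by edgeR (Acp5). Sums of 9 erythroid markers were 4.50 to 12.5 at P21, against 10.8 to 142 at P10, with 1 called lower by edgeR (Hbb-bs) and 4 by DESeq2. Fibroblast marker sums overlapped, with 1293 to 2044 at P21, against 788 to 2894 at P10. B cell marker sums were 780.1 to 915 at P21, against 669 to 734 at P10. Of the 10 macrophage identity genes, edgeR called 0, while 5 were higher at an unadjusted p under 0.05 (7.91% of all genes). DESeq2 called 2 higher (3.68% of all genes), as did limma voom. In 6 of the 10 the P21 libraries lay wholly above the P10 libraries (8.8% of all genes), and the median log2 change was 0.50. The part of these lists in the rise of the receptor targets was not tested.

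The genes whose pattern over the 12 libraries of E14.5 to P21 was most like that of Tsc22d3, by Pearson's r of log2 CPM among 7365 genes, were the complement receptor gene C5ar1 (r = 0.98), the late endosome gene Rab7b (0.98), the glutamine synthetase gene Glul (0.96), the chemokine gene Ccl9 (0.96) and Cd72 (0.96). C5ar1 had 1720.3 ± 231 CPM at P21 and 897 ± 76.0 CPM at P10, and Rab7b had 427 ± 78.9 CPM at P21 and 146 ± 13.9 CPM at P10. For Mt1 they were the transcription factor gene Cebpb (0.98), the ubiquitin gene Ubb (0.98), the protease gene Ctss (0.98), Cd83 (0.97) and the transcription factor gene Nfil3 (0.97). Cebpb had 1466 ± 385 CPM at P21, 633 ± 147 CPM at P10 and 225 ± 55.6 CPM at E14.5. These are descriptions over 12 points that share 4 ages, and they were picked as the highest values.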

How the data were processed

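Deposited raw read counts per gene symbol of 15 libraries were used, with no normalization by the authors. Tools listed in the submitters' processing notes are bcl2fastq (2.18), STAR (2.7.8a) and featureCounts (2.0.2). The genome build, annotation, strand setting and handling of multi-mapping reads are not given in the sources used here. Per the labels' protocols, RNA of sorted cells was amplified with a SMARTer Ultra Low Input kit before tagmentation with Nextera XT, and no molecular identifiers are named. Total counts were 17550170 to 30614583 per library, and no count column was left out.

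Age was the sole term of a robust quasi-likelihood model of the 15 libraries in edgeR 4.0.16 (R 4.3.3), after filterByExpr by age (14683 genes kept) and TMM scaling. Benjamini-Hochberg adjustment ran over all tested genes, and calls were made under 0.05. CPM are relative to the tested genes' total times the TMM factor; list sums are relative to the total count. Alternatives were other scalings (RLE, upper quartile) and filters, DESeq2 1.42.0, limma voom 3.58.1, fits of the ages compared only, the replicate number as a block and leaving out libraries. The fits were checked on simulated data. Promoters came from RefSeq (GRCm38.p6) and exon lengths from GENCODE M21, matched by symbol (50067 of 53546, 93.5%); the authors' build may differ.

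The 10 genes, the further gene lists and the markers were chosen with earlier results of these data known. All 10 are described. From each further list of pathway genes, those called at P21 against P10 were named. Those called at P3 against E14.5 were named for the glucocorticoid-induced, hypoxia and clock lists. At that step, calls were not named for repressed inflammatory genes (4 higher, 2 lower) and immediate early and heat shock genes (2 higher, 4 lower). Over all genes, 1.67% were called higher there and 0.388% lower. Nr3c2, Hsd11b1, Fkbp4, Mtf1 and Slc30a1 were named whatever their result. For Tsc22d3 and Mt1 the 5 most alike genes of at least 20 CPM were named. P-values measure the spread between libraries, for which the series text gives 3 to 5 mice per age.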

Additional observations from a re-analysis of the deposited data

How the results depend on the processing

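The calls of Tsc22d3 and Errfi1 at P21 against P10 held under each alternative; the count of called genes among the 10 (4) was 7 with DESeq2 and 2 to 4 with 1 library left out. At P3 against E14.5 (0 called) it was 3 with DESeq2, 2 with only the libraries of the ages compared, 1 with upper-quartile scaling, no filter or the 5 CPM filter, and 0 to 1 with 1 library left out. At P10 against P3 (0 called) it was 2 with DESeq2 and 2 with only the ages compared. With the replicate number as a block, over 12 libraries, 2 of the 10 were called at P3 against E14.5, 2 at P10 against P3 and 5 at P21 against P10. Whether the numbers paired the samples could not be decided, because correlations were near 0 with and without a shared number. Deviations of same-numbered libraries correlated at -0.05 to 0.06 (median 0.016), those of other pairs at -0.06 to 0.06 (median -0.0017). Of 12 libraries, 6 correlated best with their own number. The block was not fitted for P56, whose numbers 4 to 6 occur at no other age.

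Some log2 changes, none of them called, turned sign. Lowest and highest with 1 library left out were -0.40 and 1.08 (Ddit4, P3 against E14.5), -6.50 and 2.39 (Zbtb16), -0.031 and 0.84 (Klf9), -0.19 and 0.10 (Nr3c1) and -0.088 and 0.18 (Tsc22d3) for P10 against P3, and -0.51 and 0.048 (Tsc22d3), -0.55 and 0.17 (Klf9), -0.37 and 0.056 (Errfi1) and -0.44 and 1.28 (Fkbp5) for P56 against P21. Nr3c1 at P10 against P3 was 0.0098 with upper-quartile scaling, and Ddit4 at P3 against E14.5 was -0.20 without E14.5 replicates 1 and 2, a setting added after the data were seen.

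Counts over all genes moved more. P3 against E14.5 (245 higher, 57 lower) gave 620 and 205 with DESeq2, 373 and 308 with only the ages compared, 132 lower with limma voom, 21 and 1 without E14.5 replicates 1 and 2, and 107 to 173 and 17 to 25 with 1 library left out. P10 against P3 (50 and 9) gave 183 and 151 with DESeq2, 87 and 29 without a filter, lower counts of 18 with the 5 CPM filter, 27 with limma voom, 30 with the ages compared and 19 with the block, and 19 to 36 and 2 to 13 with 1 library left out. P21 against P10 (141 and 27) gave 493 and 255 with DESeq2, 68 and 5 with the ages compared, lower counts of 52 without a filter, 42 with the 5 CPM filter, 55 with limma voom and 60 with the block, and 27 to 95 and 3 to 76 with 1 library left out. P56 against P21 (15 and 25) gave 208 and 316 with DESeq2, 44 and 57 without a filter, 39 and 13 with limma voom, 1 and 2 with the ages compared, and 9 to 60 and 23 to 40 with 1 library left out. P21 against E14.5 (1147 and 642) gave 1124 lower with DESeq2, 1143 lower with limma voom, 304 and 70 without E14.5 replicates 1 and 2, and 746 to 1105 and 362 to 828 with 1 library left out. The F-test over 12 libraries (1759) gave 3226 with DESeq2 and 1009 to 1851 with 1 library left out. The causes were not tested. Ddit4 and Zbtb16 had few counts and a wide spread between libraries of like depth.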

Other observations

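Outside the receptor targets, 2 genes of the same lists had patterns of their own; both were called at P3 against E14.5. Ddit4l, the paralog of Ddit4 and like it an mTORC1 inhibitor, had raw counts of 0, 0 and 0 at E14.5, 247, 376 and 323 at P3, 424, 62 and 173 at P10, 0, 137 and 8 at P21, and 11, 28 and 35 at P56. The pooled P3 level was at least 316-fold higher than the E14.5 floor of 3 counts over the age (edgeR adjusted p = 0.0253). Dbp, a clock-controlled transcription factor gene, was the 1 of 17 circadian clock genes that rose at P3 against E14.5 (log2 change 3.23 ± 0.57, adjusted p = 0.00904). In the same comparison the glucose transporter gene Slc2a1 fell by 2.22 on the log2 scale (adjusted p = 0.0230). Markers of other cells also differed at this step. Mast cell marker sums were 638 to 1765 CPM of the total count at P3, against 2.11 to 126 at E14.5. Fibroblast marker sums were 583 to 2598 at P3, against 74.8 to 742 at E14.5, and B cell marker sums were lower (284 to 461, against 507 to 648). Their part in the calls at P3 against E14.5 was not tested.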
